A study of Mus musculus with 29 samples.

Results

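Zfp-series genes are mouse genes named as a zinc finger protein with a number, such as Zfp51 or Zfp804b. A conditioning lesion is an injury made before culture, known from peripheral sensory neurons to raise later regrowth. The genes were followed in adult cortical neurons that had or had not received a conditioning lesion before culture. All 68 such genes of the authors' table of changed genes were taken, by a symbol made of Zfp, a number and at most 1 letter; Zfp36, whose product binds RNA, was to be left out but is not among the table's 5826 genes. Lesion cultures came from wild-type C57/BL6 mice injured in vivo 24 hours before plating, and naive cultures from wild-type C57/BL6 mice with no treatment. Both were harvested on days 1, 2, 3, 5 and 7 of culture, in 29 libraries (15 lesion, 14 naive) of 10 groups. Each group held 3 libraries, but the naive group of day 7 held 2.

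For each day the table gives a log2 fold change of lesion against naive, a p-value and an adjusted p-value, all from the authors' fit with limma, and it holds no value per library. Depth is unknown here. It keeps genes with an adjusted p under 0.1 at 1 or more days, which is 30.5% of 19085 tested, so passing somewhere is fixed by the choice of members. Among members, the smallest adjusted p over the 5 days reached from 0.00127 for Zfp804b to 0.0994 for Zfp112 in the authors' deposited table, and genes just outside the threshold were not analysed here. Positive values mean higher in lesion cultures, "rose" and "fell" are used only below that threshold, and each standard error is the one implied by a fold change and its p-value. The labels call the cells neurons, and the neuron markers Tubb3, Map2 and Snap25 have expression ranks of 321, 702 and 843 in the authors' deposited table. Of the same list, Gad1 stands at rank 244, but Syt1, Rbfox3 and Nefm stand at 5494, 7785 and 11022. The deposited table also holds markers of glia, vessels and fibroblasts, given beside the results. Their ranks overlap those of the neuron markers, from 856 for the oligodendrocyte marker Cnp to 15562 for the fibroblast marker Lum. In such mixed RNA, fewer cells of a type and less RNA per cell cannot be told apart. The labels do not tell whether replicate libraries trace back to different mice or dishes, so p-values measure the spread between libraries only.

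Proteins of this series mostly carry arrays of zinc fingers of the classic type, in which 2 cysteines and 2 histidines hold a zinc ion and each finger can read a few bases of DNA. Many also carry an amino-terminal KRAB domain, which recruits the co-repressor TRIM28 and, through it, histone methyltransferases, heterochromatin proteins and DNA methylation. KRAB zinc finger genes lie in clusters of related copies, and many are known for silencing transposable elements, while series members without a KRAB domain include activators, repressors and chromatin adaptors with varied roles.

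Of the 68 members, all of which are protein-coding in GENCODE vM21, 35 had a KRAB A box in their longest translation, with 9 or 10 of 10 key residues. None of the other 33 had more than 6, the number in Zfp37. Members with the box had a median of 12 finger motifs (4 to 20), against 8 (0 to 31) without it. Zfp365 was the one member with no finger motif, Zfp236 had the most, and Zfp445 was the one with a SCAN domain motif. Another Zfp-series gene lay within 100 kb of 32 of the 35 KRAB members and of 5 of the 33 others. Chromosome 7 held 16 members and chromosome 13 held 7. Genes with sequence in common can share reads: 14 members had at least 10% of their 50-base words in transcripts of other genes, up to 52.2% in Zfp58. Words were matched on either strand to transcripts of any other gene, so related copies and overlapping gene models were not told apart. How the authors counted shared reads is not given in the sources used here, so the values of those 14 are uncertain. KRAB members stood lower in the expression rank of the table (1 is read as the highest, from the values), with a median rank of 9407 against 6816 for the others.

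Promoter windows of a member that changed at 4 days (Zfp804b), a day 7 riser (Zfp53), an early faller (Zfp964) and a day 5 faller (Zfp871) are shown so that their sequence can be set beside their time courses. Each runs 5′ to 3′ from 250 bases before to 50 after the RefSeq start on GRCm38.p6. These are chr5:7344329-7344628, minus strand; chr17:21488738-21489037, plus strand; chr8:69654306-69654605, plus strand; and chr17:32788238-32788537, minus strand. Capitals mark matches on either strand to TATAAA (the TATA box), GGGCGG (the GC box), CCAAT (the CAAT box), CACGTG (an E box), TGANTCA (the AP-1 site) and TGACGTCA (the CRE).
Zfp804b: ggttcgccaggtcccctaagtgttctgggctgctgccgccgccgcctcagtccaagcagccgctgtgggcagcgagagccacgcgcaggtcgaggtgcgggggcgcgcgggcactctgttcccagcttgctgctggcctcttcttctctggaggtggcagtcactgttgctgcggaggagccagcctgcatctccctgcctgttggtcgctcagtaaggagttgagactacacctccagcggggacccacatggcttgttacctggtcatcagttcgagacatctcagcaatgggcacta
Zfp53: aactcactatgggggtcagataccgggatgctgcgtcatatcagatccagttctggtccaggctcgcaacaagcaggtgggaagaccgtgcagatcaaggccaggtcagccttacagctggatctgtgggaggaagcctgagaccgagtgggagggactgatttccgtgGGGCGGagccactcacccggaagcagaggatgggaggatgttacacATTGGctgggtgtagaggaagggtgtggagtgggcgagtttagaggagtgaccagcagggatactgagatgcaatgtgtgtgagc
Zfp964: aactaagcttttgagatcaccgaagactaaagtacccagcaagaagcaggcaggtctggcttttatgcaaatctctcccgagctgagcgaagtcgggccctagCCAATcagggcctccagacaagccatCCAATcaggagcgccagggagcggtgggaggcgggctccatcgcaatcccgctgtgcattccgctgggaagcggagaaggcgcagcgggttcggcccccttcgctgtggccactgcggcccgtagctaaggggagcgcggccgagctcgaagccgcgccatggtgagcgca
Zfp871: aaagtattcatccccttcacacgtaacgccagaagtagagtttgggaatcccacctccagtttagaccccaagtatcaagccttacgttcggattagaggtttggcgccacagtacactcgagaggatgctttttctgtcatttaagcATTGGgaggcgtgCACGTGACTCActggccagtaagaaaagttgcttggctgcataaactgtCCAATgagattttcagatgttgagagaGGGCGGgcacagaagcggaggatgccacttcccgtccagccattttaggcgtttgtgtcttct
The Zfp804b window held none of these motifs and 17 CpG sites. It lies wholly inside the GENCODE gene, whose 5′ end on the minus strand is at 7344756. Sequence before that end was not searched, so the missing motifs do not describe a promoter there. Zfp53 held a GC box and a CCAAT box, with 9 CpG sites, and Zfp964 held 2 CCAAT boxes and 24 CpG sites. In Zfp871 an E box and an AP-1 site overlapped, beside 2 CCAAT boxes and a GC box, with 12 CpG sites. RefSeq promoters matched 55 members. CCAAT boxes were found in 38.2% of them, in 37.9% of all 27025 promoters and in 37.1% of 4214 promoters of other genes in the table. GC boxes were found in 41.8% of member promoters, above the 35.9% of all promoters and below the 60.8% of other table genes, and the median CpG count was 14 against 7 and 19. Among KRAB members 15 of 30 promoters had a CCAAT box and 11 a GC box, with a median of 10 CpG sites, while among the others 6 of 25 had a CCAAT box and 12 a GC box, with a median of 21. A match is a description of letters, not of a bound site.

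Changes of Zfp-series genes were most numerous at day 5, and there they were mostly decreases. In the authors' deposited table no member passed the threshold at day 1, 5 rose and 14 fell at day 2, 1 rose and 3 fell at day 3, 8 rose and 40 fell at day 5, and 5 rose and 6 fell at day 7. Of all genes tested, 0.618% were called at day 1, 5.97% at day 2, 1.48% at day 3, 24.0% at day 5 and 4.09% at day 7. Every member is called at some day by the choice of members, so the same shares over the table are given too, and they were 2.03%, 19.6%, 4.84%, 78.5% and 13.4%. Member shares of 27.9% at day 2, 5.88% at day 3, 70.6% at day 5 and 16.2% at day 7 lay near those of the table, so the number called is no result about the members. The split by direction at day 5 was 58.8% down and 11.8% up among members, against 36.7% down and 41.8% up in the table. A single day was passed by 56 members, 40 of them at day 5, while 11 passed at 2 days and Zfp804b at 4.

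**Figure D1:**
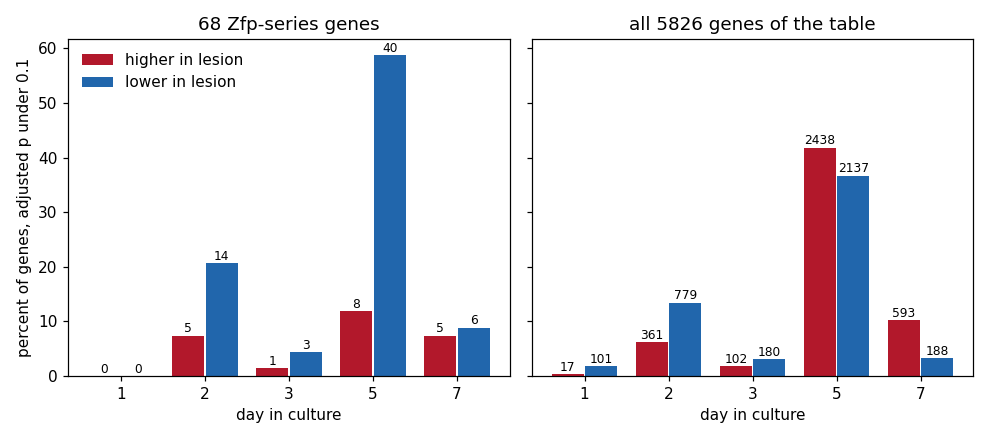
Percent of the 68 Zfp-series genes (left) and of all 5826 genes of the table (right) with an adjusted p under 0.1 at each day in culture; red bars are higher and blue bars lower in lesion cultures, with the number of genes above each bar. At day 5, 40 Zfp-series genes fell and 8 rose, while 2137 table genes fell and 2438 rose.

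**Figure D2:**
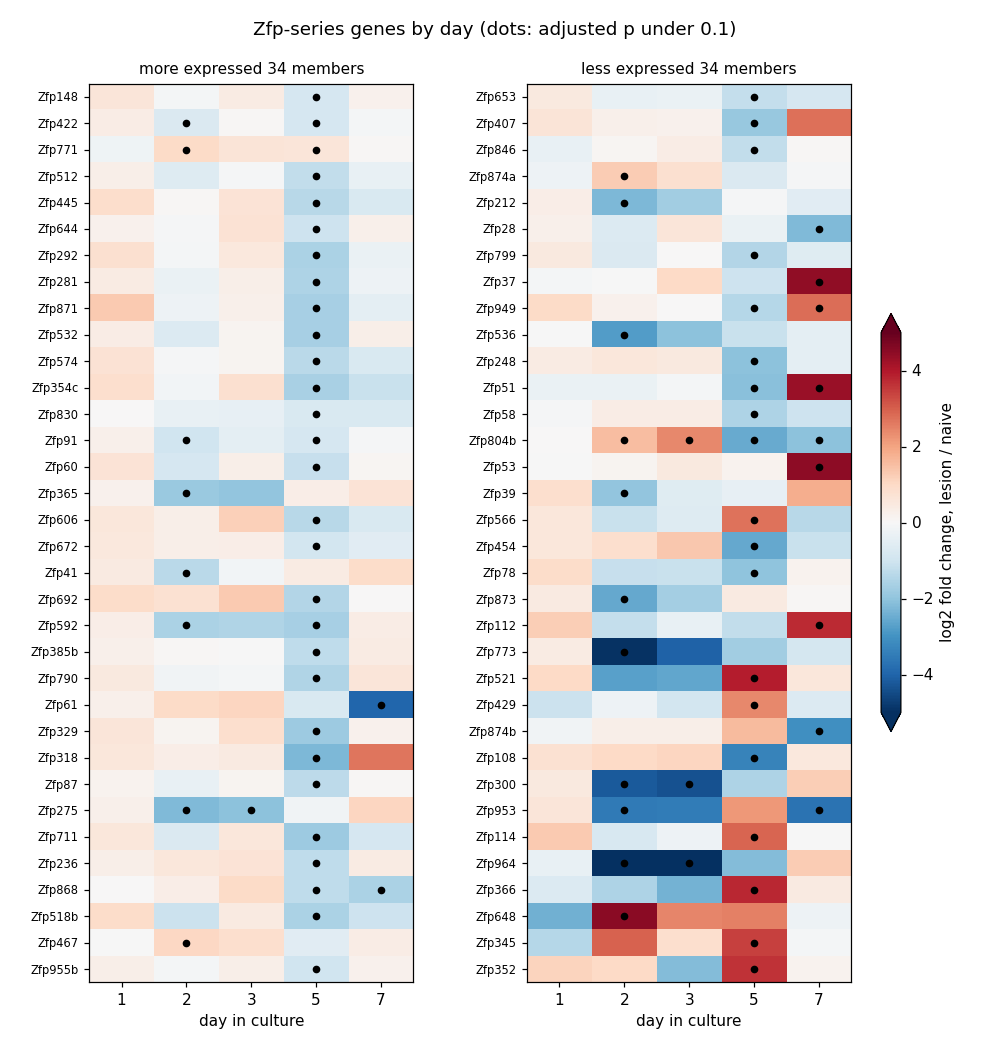
Log2 fold change of lesion against naive for each Zfp-series gene (1 line per gene, most expressed at the top left) at each day in culture; dots mark an adjusted p under 0.1 and the colours saturate at the ends of the scale. Most day 5 cells of the more expressed genes are blue with dots, and the steepest early decreases and most day 5 increases lie among the less expressed genes.

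At day 1, values of most members lay slightly above 0 and none passed the threshold of the limma test. Log2 fold changes were above 0 in 53 of the 68 members and in 2914 of the 5826 table genes, with medians of 0.41 and 0.00. Expression rank went with the day 1 value over the table, with a Spearman's rho of -0.349. At ranks up to 9542 the median was 0.36 for 47 members and 0.19 for 3607 table genes. At later ranks it was 0.50 for 21 members and -0.64 for 2219 table genes. These differences were not tested. Of all genes tested 0.0891% rose and 0.529% fell, which is 0.292% and 1.73% of the table. Unadjusted p-values were under 0.05 for 6 members. One of these, the KRAB gene Zfp871, had a value of 1.29 in the authors' deposited table (log2 standard error 0.36, adjusted p of 0.119). Among the listed cell type markers only Csf1r, of microglia and macrophages, passed, at -2.26 in the authors' deposited table (adjusted p of 0.0674).

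At day 2, KRAB genes of low expression showed the steepest decreases, and some regulators known from neural differentiation fell with them. The 14 members that fell, 7 of them KRAB, had log2 fold changes between -5.02 and -0.74, with a median of -2.22, and decreases were 4.08% of all genes tested and 13.4% of the table. Zfp964 had a value of -5.02 in the authors' deposited table (log2 standard error 1.21, adjusted p of 0.022). The KRAB gene Zfp773 fell by 4.95 in the authors' deposited table (log2 standard error 1.17, adjusted p of 0.0203). Zfp300, a KRAB gene of the X chromosome, fell by 4.21 in the authors' deposited table (log2 standard error 1.12, adjusted p of 0.0333). These were the 3 lowest day 2 values of the members. Zfp953, a KRAB gene of the chromosome 13 cluster, fell by 3.52 in the authors' deposited table (log2 standard error 1.10, adjusted p of 0.0687). These 4 were the members with a day 2 value under -3 among those that passed, and their expression ranks ran from 11737 to 14726.

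Among members without a KRAB box, Zfp536, known as a repressor of neuronal differentiation, fell by 2.78 at day 2 in the authors' deposited table (log2 standard error 0.69, adjusted p of 0.025). The X-linked Zfp275 fell by 2.20 in the authors' deposited table (log2 standard error 0.53, adjusted p of 0.0222). Zfp365, whose product binds the psychiatric risk protein DISC1 and is known from mice in oligodendrocyte differentiation, fell by 1.86 in the authors' deposited table (log2 standard error 0.59, adjusted p of 0.0737). Smaller decreases were seen in chromatin and signalling factors. Zfp592, part in human cells of a chromatin complex with ZMYND8, fell by 1.58 in the authors' deposited table (log2 standard error 0.47, adjusted p of 0.0581). Zfp91, an atypical ubiquitin ligase of the noncanonical NF-kB pathway, fell by 0.98 in the authors' deposited table (log2 standard error 0.29, adjusted p of 0.0522), and Zfp422, also called Krox-26, fell by 0.74 (standard error 0.25, adjusted p = 0.0909), with 20.4% of its words in other transcripts. The remaining members that fell were the KRAB genes Zfp873, Zfp212 and Zfp39 and the KRAB-free Zfp41, which were not picked by the naming rule. At an adjusted p under 0.05, 5 of the 14 decreases passed.

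Markers of neurons and of other cells moved at day 2 as well. Oligodendrocyte lineage markers fell in 4 of 10 cases and none rose, with Olig2 at -8.29 in the authors' deposited table. Of 10 endothelial markers 7 fell and none rose, with Slco1a4 at -3.75 in the authors' deposited table. Of 10 neuron markers 2 fell, Tubb3 at -1.18 and Nefm at -2.97, and 1 rose, Gad1 at 1.06. Levels of these markers per library are not in the table, and their part in the decreases of Zfp genes was not tested.

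The 5 members that rose at day 2 were mostly KRAB-free, and increases were 1.89% of all genes tested and 6.20% of the table. Zfp771, the most expressed of them by rank, rose by 0.95 in the authors' deposited table (log2 standard error 0.24, adjusted p of 0.0281). Zfp804b, a paralogue of the schizophrenia-associated Zfp804a, rose by 1.54 in the authors' deposited table (log2 standard error 0.40, adjusted p of 0.0297). Zfp467, known from mice to promote adipocyte differentiation, rose by 1.03 in the authors' deposited table (log2 standard error 0.33, adjusted p of 0.0749). Fold sizes within this group differed widely. The KRAB gene Zfp874a rose by 1.26 in the authors' deposited table (log2 standard error 0.39, adjusted p of 0.0654), and 16.3% of its 50-base words occur in other transcripts. Zfp648, at expression rank 17062, rose by 4.52 in the authors' deposited table (log2 standard error 1.38, adjusted p of 0.0639).

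Members called at day 2 had day 3 values of the same sign, with 1 exception among 19, although few passed at day 3. Over all 68 members 49 had the same sign at both days and 19 did not, and the median was -0.22 at day 2 and 0.24 at day 3. The share of table genes with the same sign is not given here, so these counts are no result about the members. Across the 68 members Spearman's rho between the log2 fold changes of both days was 0.805, against 0.526 over the table, as a description across genes, which are not independent replicates. Each day has libraries of its own, so these comparisons share no control libraries. Whether libraries of different days came from the same mice is not known. Of the 14 members that fell at day 2, 13 were below 0 at day 3, with values from -4.98 to 0.05 and a median of -1.85, and all 5 that rose were above 0. Background calls at day 3 were 0.534% up and 0.943% down over all genes tested, and 1.75% up and 3.09% down over the table. Zfp964 fell by 4.98 in the authors' deposited table (log2 standard error 1.23, adjusted p of 0.0586), Zfp300 fell by 4.35 (standard error 1.13, adjusted p = 0.072) and Zfp275 fell by 2.04 (standard error 0.54, adjusted p = 0.0755). Zfp773, at -4.05, did not pass at day 3 in the authors' deposited table (log2 standard error 1.23, adjusted p of 0.115), nor did Zfp365 at -1.99 (adjusted p = 0.112). Of the marker lists, 2 oligodendrocyte lineage and 3 endothelial genes fell and 2 neuron genes rose at this day, and their part was not tested. The 1 member that rose was Zfp804b, by 2.42 in the authors' deposited table (log2 standard error 0.52, adjusted p of 0.0328).

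At day 5, 40 members fell, covering KRAB genes, chromatin adaptors and general DNA-binding factors. Their log2 fold changes in the authors' deposited table ran from -3.33 to -0.75 with a median of -1.46, and 34 of the 40 were at or below -1, while decreases made up 11.2% of all genes tested. Zfp281, a GC-box binding factor known from embryonic stem cells, fell by 1.55 in the authors' deposited table (log2 standard error 0.38, adjusted p of 0.00595). The KRAB gene Zfp871 fell by 1.66 in the authors' deposited table (log2 standard error 0.42, adjusted p of 0.00756). Zfp292, a gene of a human neurodevelopmental disorder, fell by 1.59 in the authors' deposited table (log2 standard error 0.43, adjusted p of 0.0111). All 3 stand among the 9542 more expressed genes by rank. Zfp532, a partner of Zfp592 in the ZMYND8 complex of human cells, fell by 1.66 in the authors' deposited table (log2 standard error 0.46, adjusted p of 0.0129), but 36.8% of its words occur in other transcripts. Zfp592 itself fell by 1.64 in the authors' deposited table (log2 standard error 0.56, adjusted p of 0.0421). Zfp148, also called ZBP-89, binds GC-rich promoters and fell by 0.83 in the authors' deposited table (log2 standard error 0.28, adjusted p of 0.0426).

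Several members had day 5 values below -2. The KRAB gene Zfp108 fell by 3.33 in the authors' deposited table (log2 standard error 1.09, adjusted p of 0.0346), with 11.9% of its words in other transcripts. The KRAB genes Zfp454 and Zfp248 stood at -2.54 (standard error 0.87, adjusted p = 0.043) and -2.04 (standard error 0.85, adjusted p = 0.0952), values of the authors' deposited table. Zfp318, known from mouse B cells for the expression of IgD, fell by 2.24 in the authors' deposited table (log2 standard error 0.64, adjusted p of 0.017). Values of these 4 lay below the median of the 40. Zfp385b fell by 1.28 in the authors' deposited table (log2 standard error 0.37, adjusted p of 0.0168). Zfp445, chosen after its values were seen because it guards genomic imprints together with Zfp57, fell by 1.38 in the authors' deposited table (log2 standard error 0.42, adjusted p of 0.0223). Zfp91 and Zfp422, which fell at day 2, fell again by 0.85 each (standard errors 0.33 and 0.30) in the authors' deposited table.

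Not yet named among the 40 are the KRAB genes Zfp58, Zfp60, Zfp78, Zfp87, Zfp354c, Zfp606, Zfp790, Zfp799, Zfp846 and Zfp955b. The KRAB-free ones are Zfp236, Zfp329, Zfp407, Zfp512, Zfp518b, Zfp574, Zfp644, Zfp653, Zfp672, Zfp692, Zfp711 and Zfp830. Zfp804b, Zfp51, Zfp949 and Zfp868 fell too and are described with day 7. Of these 40 genes, 37 had a day 1 value above 0 (median 0.49) and 31 a day 3 value above 0 (median 0.32), but at day 2 only 17 were above 0 and 23 below. Of all 68 members, 53 were above 0 at day 1 and 41 at day 3. Spearman's rho with day 5 was -0.544 for day 1 and -0.555 for day 3 over the table. Over the members it was -0.255 and -0.254, so this opposition is not particular to them. At day 7 the median of the 40 was -0.09. Under an adjusted p of 0.05, 22 of the 40 decreases passed, and under 0.01, 3 did.

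The 8 members that rose at day 5 were of low expression, apart from Zfp771, and increases were 12.8% of all genes tested. Zfp521, a regulator of neural and blood cell differentiation, rose by 3.93 in the authors' deposited table (log2 standard error 1.33, adjusted p of 0.0415). Zfp366, known as DC-SCRIPT in dendritic cells, rose by 3.79 in the authors' deposited table (log2 standard error 1.49, adjusted p of 0.0756). Zfp352, known from the early mouse embryo, rose by 3.61 in the authors' deposited table (log2 standard error 1.36, adjusted p of 0.0636). Ranks of these 3 were 11782, 15019 and 17752. The KRAB genes Zfp345, Zfp114, Zfp566 and Zfp429 rose by between 2.40 and 3.42 in the authors' deposited table, and each has at least 10% of its words in other transcripts, so these 4 increases are uncertain. Zfp771 rose by 0.59 in the authors' deposited table (log2 standard error 0.25, adjusted p of 0.0982).

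Expression rank went with the direction at day 5 in the table as a whole, with a Spearman's rho of 0.495 across its genes and 0.20 across the members, so members were set beside table genes within ranges of rank. Among the 47 members at ranks up to 9542, 36 fell, 1 rose and 10 did not pass, with a median log2 fold change of -1.28. The 3607 table genes of those ranks had 1906 decreases, 947 increases and a median of -0.65. Among the 21 members of later ranks 4 fell and 7 rose, with a median of 0.45, whereas 231 of 2219 table genes fell, 1491 rose and the median was 3.26. Within the middle ranks, from 6074.5 to 10718, 22 of 34 members fell and 1 rose, with a median of -1.27, beside 528 decreases and 515 increases among 1418 table genes with a median of -0.25. Median ranks within a range still differed, at 6961 for members and 4012 for table genes up to rank 9542, at 11799 and 13618 beyond it, and at 7833.5 and 8350.5 in the middle range. Medians of the members were below those of the table in each range, as a description with no test.

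**Figure D3:**
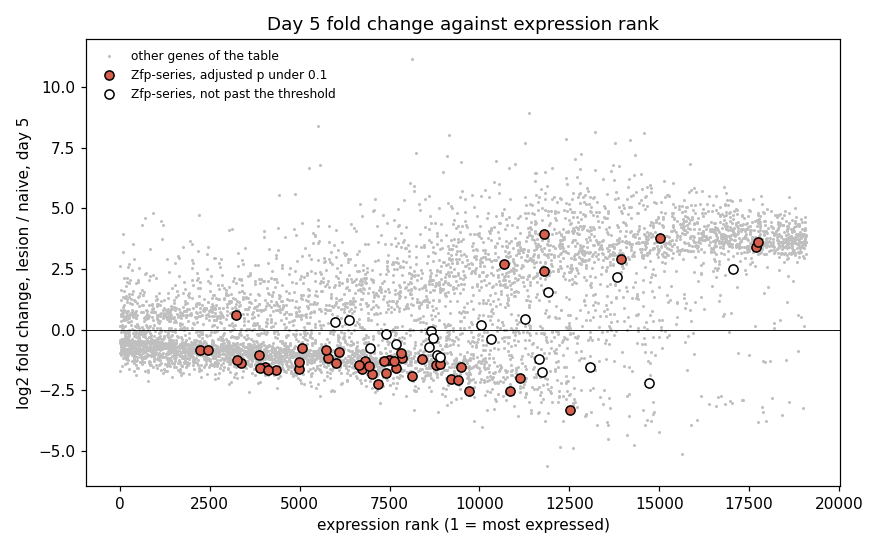
Log2 fold change at day 5 (vertical) against expression rank (horizontal, 1 is the most expressed) for the genes of the table (grey) and the 68 Zfp-series genes (circles, red where the adjusted p is under 0.1 and white otherwise). Zfp-series genes at ranks up to 9542 lie mostly below 0, with a median of -1.28, and those that rose lie to the right, with a median rank of 12871.5.

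Cell type markers moved at the same day. Of 10 neuron markers listed 7 are in the table, and 5 of these fell and none rose, with Map2 at -1.70 and Snap25 at -0.88 in the authors' deposited table. All 4 astrocyte markers in the table rose, of 10 listed, as did 8 of 10 mural and fibroblast markers, with Col3a1 at 11.14 in the authors' deposited table. The part of these shifts in the decreases of Zfp genes was not tested.

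Decreases at day 5 were found both with and without a KRAB box. Of 35 KRAB members 18 fell and 4 rose, with a median log2 fold change of -1.29, while of 33 others 22 fell and 4 rose, with a median of -1.13. At day 7, 4 KRAB members rose and 5 fell, against 1 up and 1 down without the box. These calls are 25.7% and 6.06% of each class, beside 13.4% of the table. Every member passes at some day by the choice of members, and 62.9% of KRAB members passed at day 5 against 78.8% of the others. Median expression ranks also differed, at 9407 and 6816, so the day 7 counts are no result about the classes. At day 2, 1 KRAB member rose and 7 fell, beside 4 and 7 of the others. These counts are given with no test of a difference between the classes.

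**Figure D4:**
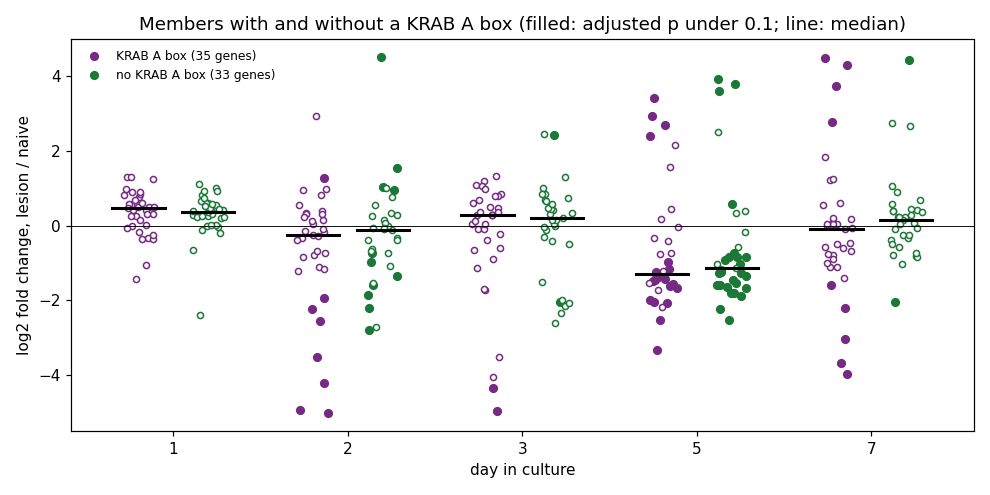
Log2 fold change of each Zfp-series gene at each day in culture, split into 35 genes with a KRAB A box (purple) and 33 without (green); filled points have an adjusted p under 0.1 and lines are medians. Both classes have their lowest median at day 5, at -1.29 and -1.13.

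Partners of KRAB proteins in silencing also fell at day 5 in part. The list held 35 genes, of which 14 are in the table, and 10 of these fell and 2 rose at day 5, with a median log2 fold change of -0.94. That is 71.4% down, against 36.7% of the table and 11.2% of all genes tested. The median rank of the 14 was 3368.5, and 52.8% of table genes at ranks up to 9542 fell. Those 14 are in the table because they passed at some day, and the difference was not tested. Trim28, the co-repressor that KRAB domains bind, fell by 0.83 on the log2 scale (adjusted p of 0.0388, both per the authors' deposited table). Atrx, a chromatin remodeller of heterochromatin, fell by 1.50 on the log2 scale (adjusted p of 0.00125, both per the authors' deposited table). Chd3, of the NuRD complex, fell by 1.67 on the log2 scale (adjusted p of 0.00463, both per the authors' deposited table). Both HUSH silencing complex genes of the table fell as well. Fam208a, also called Tasor, fell by 1.85 (adjusted p = 0.01) and Mphosph8 fell by 0.97 (adjusted p = 0.011), values of the authors' deposited table. Dnmt3a, a de novo DNA methyltransferase, fell by 0.92 on the log2 scale (adjusted p of 0.0092, both per the authors' deposited table), after a day 2 value of -0.57. Uhrf1, which brings Dnmt1 to replicated DNA, rose by 3.14 at day 5 (adjusted p = 0.00427) and by 3.22 at day 7 (adjusted p = 0.0628), values of the authors' deposited table.

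At day 2, 3 partners fell, and at day 7, 2 rose. These are 21.4% and 14.3% of the partners in the table, against 13.4% and 10.2% of the whole table. Dnmt1, the maintenance DNA methyltransferase, fell by 1.24 at day 2 on the log2 scale (adjusted p of 0.0116, both per the authors' deposited table), and Smarcad1, a remodeller, stood at -0.87 at day 2 and -1.19 at day 5 (adjusted p = 0.0488 and 0.0153). At day 7 Atf7ip, a cofactor of the histone methyltransferase Setdb1, rose by 5.40 on the log2 scale (adjusted p of 0.0231, both per the authors' deposited table). Setdb1 and 20 other listed partners are not among the genes of the table. Of 23 genes of other zinc finger families, named Zbtb, Zc3h, Zscan, Zfhx, Zic, Zkscan, Znf or Zmat, 11 fell and 6 rose at day 5. That is 47.8% down and 26.1% up, against 36.7% and 41.8% of the table and 11.2% and 12.8% of all genes tested. These 23 genes are in the table because they passed at some day. Their median log2 fold change was -0.70, beside -1.23 for the members and 0.17 for the table, and the difference was not tested. Zfp36l1 and Zfp36l2, RNA-binding relatives of Zfp36 that the symbol rule leaves out, rose at day 5 by 2.32 and 2.34 in the authors' deposited table.

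Day 7 calls were few and large, and they rest on 2 naive and 3 lesion libraries. The 5 members that rose had log2 fold changes from 2.78 to 4.47, with a median of 4.30, and the 6 that fell from -3.98 to -1.60, with a median of -2.63; of all genes tested 3.11% rose and 0.985% fell, and 10.2% and 3.23% of the table did. Zfp53 rose by 4.47 (standard error 1.14, adjusted p = 0.0331) and Zfp51 by 4.30 (standard error 1.12, adjusted p = 0.0371), values of the authors' deposited table. These KRAB genes lie close together on chromosome 17 (GRCm38), Zfp51 at chr17:21450374-21465587 and Zfp53 at chr17:21488998-21510473. The promoter of Zfp53 is among those printed above. Zfp37, which has the finger array without a KRAB box by the criterion used, rose by 4.43 in the authors' deposited table (log2 standard error 1.17, adjusted p of 0.0404). The KRAB genes Zfp112 and Zfp949 rose by 3.75 (standard error 1.22, adjusted p = 0.0994) and 2.78 (standard error 0.80, adjusted p = 0.0633), values of the authors' deposited table. Day 5 values of 4 of the 5 risers were below 0, Zfp53 at 0.18 being the exception. At an adjusted p under 0.05, 3 of the increases and 1 of the decreases passed. Of 10 mural and fibroblast markers 5 rose at day 7 and none fell, while 1 neuron marker fell. The microglia and macrophage marker Tmem119 rose by 4.60 in the authors' deposited table, and no other listed marker passed. The part of these markers in the changes of Zfp genes was not tested.

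Decreases at day 7 were led by KRAB genes. Zfp61 fell by 3.98 (standard error 1.18, adjusted p = 0.0711) and Zfp953 fell by 3.68 (standard error 1.16, adjusted p = 0.0903), values of the authors' deposited table. Zfp874b fell by 3.05 in the authors' deposited table (log2 standard error 0.93, adjusted p of 0.0791), though 31.4% of its words are shared with other transcripts. Zfp28 fell by 2.20 (standard error 0.69, adjusted p = 0.0882) and Zfp868 fell by 1.60 (standard error 0.51, adjusted p = 0.0926), values of the authors' deposited table, the latter after a day 5 value of -1.29. Zfp28 shares 16.4% of its words. Zfp804b was the 1 KRAB-free member that fell.

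Zfp804b changed sign between days. Lesion cultures had more of it at days 2 and 3 and less of it later, with values of -2.53 at day 5 (standard error 0.53, adjusted p = 0.00127) and -2.04 at day 7 (standard error 0.51, adjusted p = 0.0278) as taken from the authors' deposited table. Day 5 minus day 3 was -4.95 (standard error 0.74, adjusted p = 4.46e-05 from the test of the difference). Day 7 minus day 2 was -3.58 (standard error 0.65, adjusted p = 0.00238). The window printed above for Zfp804b, which lies inside the GENCODE gene, held none of the 6 motifs. Members called in both directions were Zfp804b, Zfp51 and Zfp949. Zfp51 fell by 2.08 at day 5 in the authors' deposited table (log2 standard error 0.70, adjusted p of 0.0407) and rose at day 7, a difference of 6.38 (standard error 1.32, adjusted p = 0.0154). Zfp949 fell by 1.44 at day 5 in the authors' deposited table (log2 standard error 0.51, adjusted p of 0.0497) and differed by 4.21 at day 7 (standard error 0.95, adjusted p = 0.023).

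**Figure D5:**
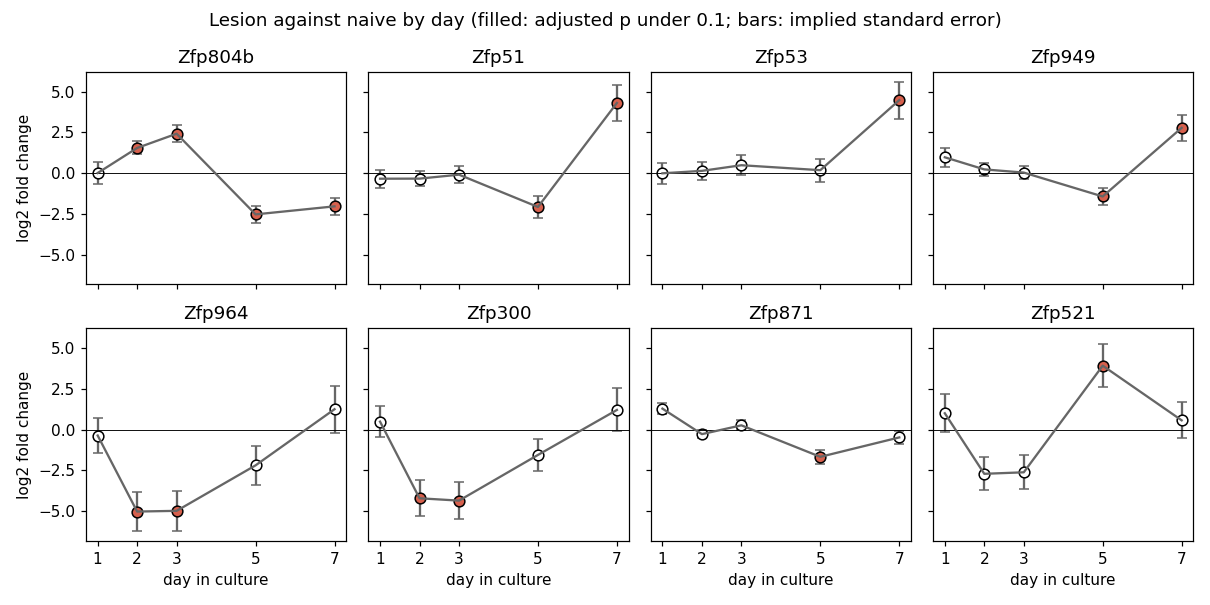
Log2 fold change of lesion against naive at each day in culture for 8 named Zfp-series genes, with bars of 1 standard error implied by the authors' p-values; filled points have an adjusted p under 0.1. Zfp804b passes from above 0 at days 2 and 3 to below 0 at days 5 and 7, and Zfp51 from -2.08 at day 5 to 4.30 at day 7.

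Tests of the differences between days asked which members changed their response over time. Across the 5 days 40 of 68 members differed, 58.8% of them, against 65.5% of the table and 20.0% of all genes tested. Genes outside the table entered these tests at a p of 1, so the table is the nearer background. Days 5 and 3 differed in 33 members, 26 of them lower at day 5, which is 48.5% of members against 62.7% of the table and 19.1% of all genes tested. Days 5 and 1 differed in 31, 29 of them lower at day 5, or 45.6% against 52.6% of the table and 16.1% of all genes tested. Days 5 and 2 differed in 24 members, 18 of them lower at day 5, or 35.3% against 43.7% and 13.3%. Member shares for these 3 pairs thus lay below those of the table, with no test of that difference. Days 7 and 2 differed in 12 members, or 17.6% against 16.4% and 5.01%, and days 7 and 5 in 8, or 11.8% against 8.34% and 2.55%. Of the 40 day 5 decreases, 29 differed from day 1, 23 from day 3, 16 from day 2 and 4 from day 7, so a decrease that passed at day 5 was seldom shown to differ from day 7.

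Some named members moved by several log2 units between days. Zfp521 stood 6.54 higher at day 5 than at day 3 (standard error 1.69, adjusted p = 0.00737), where it was at -2.61 without passing. For Zfp871 day 5 minus day 1 was -2.96 (standard error 0.55, adjusted p = 0.000815). Zfp275 stood 3.26 higher at day 7 than at day 2 (standard error 0.76, adjusted p = 0.0137). Not every large jump is a difference by this test. Zfp53 was 4.30 higher at day 7 than at day 5 (standard error 1.35, adjusted p = 0.106), which missed the threshold, while its difference from day 2 was 4.34 (standard error 1.27, adjusted p = 0.0506). Zfp37 was 5.46 higher at day 7 than at day 5 (standard error 1.30, adjusted p = 0.0315), and Zfp318 was 4.90 higher (standard error 1.16, adjusted p = 0.0309). Zfp953 was 5.68 higher at day 5 than at day 2 (standard error 1.44, adjusted p = 0.00932) and day 7 minus day 5 was -5.84 (standard error 1.49, adjusted p = 0.0434).

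Genes lying near each other did not share their direction throughout. Members within 100 kb of each other formed 20 pairs of 22 genes, and the log2 fold changes of a pair had the same sign in 14 pairs at day 1, 9 at day 2, 12 at day 3, 11 at day 5 and 11 at day 7. Many of these pairs lie in the cluster on chromosome 13 and share genes. Rates for members farther apart are not given, so the counts are a description only. Zfp51 and Zfp53 had opposite signs at days 2, 3 and 5 and the same sign at days 1 and 7. In the cluster on chromosome 13, the day 5 log2 fold changes of Zfp58 and Zfp429 had opposite signs, at -1.55 and 2.40 in the authors' deposited table, although 52.2% and 26.2% of their words occur in other transcripts.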

How the data were processed

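RNA of 29 adult cortical neuron cultures was sequenced, and per the submitters' processing notes reads were aligned with STAR to mm10. How reads were counted, filtered and scaled, and whether by strand, is not given in the sources used here. Per the file's name, the authors fitted voom and limma, and they deposited, for each day, a log2 fold change of lesion against naive, a p-value and an adjusted p-value for 5826 genes. The deposited table also holds a score for each gene, a rank of unstated meaning that was read from the values as expression order. No value per library was used, so library depth is unknown and limits on precision come only from the deposited p-values.

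Members were the 68 genes whose symbol matched the Zfp pattern. Members and gene lists were chosen with earlier results of these data known. Adjusted p-values were rebuilt from the deposited p-values by the Benjamini and Hochberg method over 19085 genes, with a largest relative deviation of 9.15e-13. Standard errors were computed from each fold change and p-value with 36 degrees of freedom, estimated from the table. Differences between days were tested per gene with these errors, taking the days as independent. Their p-values were adjusted over 19085 genes, those outside the table entering at a p of 1. These tests were tested on simulated data.

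KRAB boxes (at least 7 of 10 key residues) and finger motifs were sought in the longest translation of GENCODE vM21 (GRCm38), since a RefSeq protein table was not used here. Shared sequence was counted in 50-base words, and promoters came from RefSeq on GRCm38.p6. Named were members past 0.1 at 2 or more days, up to 6 per day and direction with the smallest adjusted p, the 6 largest day 5 changes each way among genes ranked up to 14313, and listed genes of described role, 41 in all. Python 3.11.15 with numpy 2.4.6, pandas 2.3.3, scipy 1.17.1 and matplotlib 3.10.9 was used. Alternatives were other thresholds, another adjustment, expression, domain and shared-sequence limits, and other degrees of freedom.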

Additional observations from a re-analysis of the deposited data

Results flagged for a closer look

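For 27 named Zfp-series genes the response to the lesion differed between days by the test across the 5 days, with adjusted p-values over all genes tested. These are 65.9% of the 41 named genes, which were chosen partly by the same values, and 65.5% of the table passed the same test, so the count is no result about the members. Zfp804b, which changed sign between day 3 and day 5, had the smallest (adjusted p = 1.64e-05). Among genes with a day 2 decrease the values were 0.00417 for Zfp275, 0.00471 for Zfp953, 0.00842 for Zfp365, 0.0198 for Zfp300, 0.0247 for Zfp773, 0.0278 for Zfp592, 0.0295 for Zfp964 and 0.0502 for Zfp422. Among genes with a day 2 increase they were 0.0741 for Zfp648, 0.0778 for Zfp874a and 0.0833 for Zfp467. Genes whose one decrease was at day 5 gave 0.0032 for Zfp871, 0.0168 for Zfp292, 0.0169 for Zfp318, 0.022 for Zfp281, 0.0363 for Zfp532, 0.044 for Zfp148 and 0.0546 for Zfp454, and Zfp521, which rose at day 5, gave 0.0147. Genes with a day 7 change gave 0.0117 for Zfp868, 0.0124 for Zfp51, 0.0143 for Zfp949, 0.0212 for Zfp37, 0.0267 for Zfp61, 0.0456 for Zfp112 and 0.0995 for Zfp874b. With 1 log2 fold change per day and no values per library, single libraries could not be compared.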

How the results depend on the processing

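Counts of Zfp-series genes depended on the threshold. At an adjusted p under 0.05, 2 rose and 5 fell at day 2, 0 fell at day 3, 2 rose and 22 fell at day 5, and 3 rose and 1 fell at day 7, while 13 differed between days 5 and 2 and 7 between days 7 and 2. At an adjusted p under 0.01, and also under the Benjamini and Yekutieli adjustment, 3 fell at day 5 and 0 passed in either direction at days 2, 3 and 7 or upward at day 5. Unadjusted p-values under 0.05 numbered 27 at day 2, 20 at day 3 and 14 at day 7, with limma as the only tool. Among members ranked up to 9542 3 rose and 8 fell at day 2, 0 rose and 1 fell at day 3, 1 rose at day 5 (36 fell), and 3 rose and 3 fell at day 7. Among KRAB genes alone, an alternative chosen after seeing the data, 1 rose and 7 fell at day 2, 0 rose at day 3, and 4 rose and 18 fell at day 5. Without the members sharing at least 10% of words, also chosen after seeing the data, 4 rose at day 5. A fold limit, a finger motif and residual degrees of freedom moved no count by over 1.5 times. Medians moved by less than the median standard error of a member at that day (0.413 to 0.655), but at ranks up to 9542 the day 2 median was -0.12 in place of -0.22 and the day 7 median -0.06 in place of 0.02. Of 55 calls of named genes 28 remained at 0.05 and 3 at 0.01. Searches in RefSeq proteins were not run. No paired analysis was possible because the table holds no values per library, so replicates could not be left out either. Depth is unknown, and the table does not show which genes of low rank had few reads.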
